A study of Mus musculus with 12 samples.

Results

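The 5 copies of the alpha-1 antitrypsin gene, Serpina1a, Serpina1b, Serpina1c, Serpina1d and Serpina1e, and the antichymotrypsin gene Serpina3n were followed across the intervertebral disc. These 6 genes are 6 of the 19505 named genes on the array, and each had 1 transcript cluster (the array's unit for 1 gene) of 22206 tested. The set was chosen by the measured difference of Serpina1e, which was lower in the annulus fibrosus (AF), the fibrous outer ring of the disc, of TonEBP +/- mice than of WT mice. Differences between genotypes in AF are therefore given as a description, with no test.

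RNA came from AF and from the nucleus pulposus (NP), the gelatinous core, of lumbar discs spanning L1 to S1. All mice were 12 months old and on a C57BL/6 background. TonEBP +/- mice are called haploinsufficient in the labels, which name no promoter, Cre or cell type to which the loss of 1 copy would be limited, and do not describe the allele. The 4 groups were NP of TonEBP +/-, NP of WT, AF of TonEBP +/- and AF of WT, with 3 samples each, every sample being pooled disc tissue of a single animal. The labels give neither sex nor which AF and NP samples share a mouse. Values are log2 signals of Clariom S Mouse arrays as deposited, so a difference of 1 is a 2-fold change, and levels of different genes are not compared.

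Antitrypsin is a secreted serpin, a protease inhibitor that is cleaved by its target and traps it. The liver makes most of the antitrypsin in blood, and its best known target is neutrophil elastase, the granule protease that can degrade elastic fibres and proteoglycans. Humans have a single antitrypsin gene, whereas C57BL/6 mice carry several near-identical copies that differ mostly in the loop that proteases attack. Serpina3n belongs to the mouse antichymotrypsin group, is induced in the acute phase response, and inhibits cathepsin G and, in mice, granzyme B. TonEBP, encoded by Nfat5, is the transcription factor that switches on osmoprotective genes in the hyperosmotic disc.

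The copies lie next to one another on chromosome 12. In the RefSeq gene order the run is Serpina1b, Serpina1d, Serpina1a, Serpina1c and Serpina1e, with no other protein-coding gene between them, and 13 protein-coding genes separate Serpina1e from Serpina3n. Promoter windows, from 250 bases before to 50 after each annotated start, were found for all 6 genes in RefSeq (GRCm38.p6). Over aligned stretches of 238 to 298 bases, the 10 pairs of Serpina1 windows were 91.7% to 98.4% identical. Pairs with Serpina1e aligned over 238 to 249 bases and the others over 288 to 298, so the pairs are not ranked. The stretch of 115 bases below, entirely upstream of each annotated start and on the minus strand, is shown because near-identical promoters here belong to genes with unlike signals in the disc. Capitals mark the 10 positions at which the copies are not all the same, and the other 105 are identical in all 5. The locations are chr12:103863625-103863739 for Serpina1a, chr12:103738200-103738314 for Serpina1b, chr12:103904962-103905076 for Serpina1c, chr12:103773634-103773748 for Serpina1d and chr12:103956960-103957074 for Serpina1e.
Serpina1a: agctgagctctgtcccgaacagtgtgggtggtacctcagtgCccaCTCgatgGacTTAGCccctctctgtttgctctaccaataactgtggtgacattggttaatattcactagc
Serpina1b: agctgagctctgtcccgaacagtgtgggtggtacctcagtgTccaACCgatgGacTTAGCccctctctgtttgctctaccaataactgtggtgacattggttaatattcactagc
Serpina1c: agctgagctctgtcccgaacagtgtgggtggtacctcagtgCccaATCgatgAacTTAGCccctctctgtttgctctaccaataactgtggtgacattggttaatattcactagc
Serpina1d: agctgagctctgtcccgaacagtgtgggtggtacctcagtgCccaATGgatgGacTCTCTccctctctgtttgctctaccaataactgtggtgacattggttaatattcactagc
Serpina1e: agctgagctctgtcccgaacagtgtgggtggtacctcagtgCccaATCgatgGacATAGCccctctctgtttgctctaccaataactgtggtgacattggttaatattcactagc

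All 5 windows held GTTAAT, a half-site of the liver factor HNF1, once on either strand, against 7.1% of 32851 mouse promoter windows. It shares its first G with an ATTGG, the reverse complement of CCAAT, which the windows held 2 or 3 times on either strand (37.4% of all windows). The annotated start of Serpina1e lies 62 bases beyond this stretch, and those of the other copies 0 to 11 bases beyond it. TGGAAA, the core of the element that TonEBP and other NFAT proteins bind, was in none of the 5 Serpina1 windows and 2 times in that of Serpina3n (21.4% of all windows). TTCNNNGAA, a STAT element, and TATAAA were in none of the 6 windows, against 8.3% and 13.6% of all. These are letter matches in short windows, not binding sites. For Serpina3n, the 120 bases before its annotated start on the plus strand, chr12:104406588-104406707, follow, with 1 of its TGGAAA matches (read on the other strand) in capitals.
Serpina3n: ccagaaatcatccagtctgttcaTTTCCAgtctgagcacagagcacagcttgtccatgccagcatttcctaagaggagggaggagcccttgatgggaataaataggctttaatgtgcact

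Promoter windows lie mostly outside the transcripts and do not show how probes bind. The gene copies themselves are near-identical, which raises the possibility of cross-hybridization, in which probes designed for 1 copy also bind RNA of another. The probe sequences and transcripts were not used here, so its share in each signal was not tested. As given further on, Serpina1e ran opposite to the other 4 copies between the tissues, while all 5 copies had the same order of arrays within each AF group.

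Nfat5, the gene that TonEBP +/- mice lack 1 copy of, was not lower in them. It had 9.06, 9.62 and 9.09 in NP of TonEBP +/-, against 9.12, 8.80 and 8.34 in NP of WT (difference 0.50, 95% CI -0.35 to 1.36), and 8.91, 8.94 and 8.74 in AF of TonEBP +/-, against 7.70, 8.69 and 9.93 in AF of WT (0.09, 95% CI -0.77 to 0.94). The genotypes overlapped in both tissues. A 2-fold fall lies outside both intervals, but these rest on 1 spread shared by all groups. The SD in AF was 0.11 in TonEBP +/- and 1.12 in WT, so the AF interval may be too narrow to exclude such a fall. Where the probes lie relative to the changed part of the allele is not given in the sources used here, so this signal does not check the genotype labels, from which every direction between genotypes is taken. Array medians ran between 6.82 and 6.87 for NP and between 7.43 and 7.64 for AF, and the number of arrays limits the precision. A cluster was taken as above background where it exceeded the 95th percentile of the background probe sets of that array, 7.11 to 7.98. NP keratins and Car3 marked the NP arrays: the means of the NP marker list lay at 15.1 to 15.3 on NP arrays of TonEBP +/- and 15.2 to 15.4 on those of WT. On AF arrays the list lay at 9.38 to 10.1 for TonEBP +/- and 9.91 to 11.6 for WT. Noto went against its place on this list, being called lower in NP than in AF. Its NP minus AF difference was -1.10 in TonEBP +/- and -0.64 in WT (limma, adjusted p = 0.00168 and 0.0386). In AF, Col1a1, Comp and Dcn were above background on every array, but the tendon regulators Scx and Mkx and the tendon marker Tnmd were above background on no AF array. Means of 12 neutrophil markers were between 8.56 and 10.1 for NP of TonEBP +/- and between 10.8 and 12.2 for NP of WT. They were higher for AF, between 16.3 and 17.0 in TonEBP +/- and between 15.2 and 15.7 in WT. AF array 3 of TonEBP +/- stood apart, with the widest interquartile range among AF arrays, 3.11 against 2.36 to 2.66. AF array 1 of WT stood apart in NP markers, with a list mean of 11.6 against 10.0 and 9.91 on WT arrays 2 and 3. Its Car3 signal was 18.17, against 14.26 and 13.37 on those arrays.

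Serpina1e, the copy that chose the set, had log2 signals of 12.69, 12.54 and 11.35 in AF of TonEBP +/-, against 13.60, 14.64 and 15.53 in AF of WT. Every TonEBP +/- array lay below every WT array. The difference was -2.40 (95% CI -3.27 to -1.53), or 5.28-fold lower. Counted from the most negative AF difference, it was number 5 of all 22206 clusters. In bulk tissue, fewer cells of a type and less RNA per cell cannot be told apart.

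The other copies were also lower in AF of TonEBP +/- on average, but each overlapped between genotypes. Serpina1b had 12.61, 12.46 and 11.25 in TonEBP +/-, against 12.16, 14.61 and 15.98 in WT. Its difference was -2.15 (95% CI -3.78 to -0.52), with WT array 1 inside the TonEBP +/- range. Serpina1a had 16.81, 16.37 and 14.01 in TonEBP +/-, against 14.37, 17.58 and 18.90 in WT, a difference of -1.22 (95% CI -2.99 to 0.56). The lowest WT array lay between TonEBP +/- arrays 2 and 3.

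Serpina1d had 15.43, 13.90 and 12.79 in AF of TonEBP +/-, against 12.84, 15.67 and 16.69 in AF of WT. The difference was -1.03 (95% CI -2.56 to 0.51). For Serpina1c the signals were 14.59, 13.05 and 12.08 in TonEBP +/-, against 10.86, 14.60 and 15.81 in WT, and WT array 1 was the lowest of all 6. Its difference of -0.52 (95% CI -2.34 to 1.31) was the smallest among the copies, and turned to 0.51 without WT array 3 and to 0.06 without TonEBP +/- array 3.

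Serpina3n had 8.88, 8.96 and 8.62 in AF of TonEBP +/-, against 8.15, 10.35 and 8.84 in AF of WT. All TonEBP +/- arrays lay within the WT range, and the difference was -0.29 (95% CI -1.33 to 0.74). It was 0.32 without WT array 2, the highest. Of the 6 genes, 1, Serpina1e, did not overlap between genotypes in AF, where 12.3% of all clusters lay wholly lower and 10% wholly higher in TonEBP +/-. Nothing is read from that count, since this contrast chose the set.

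**Figure D1:**
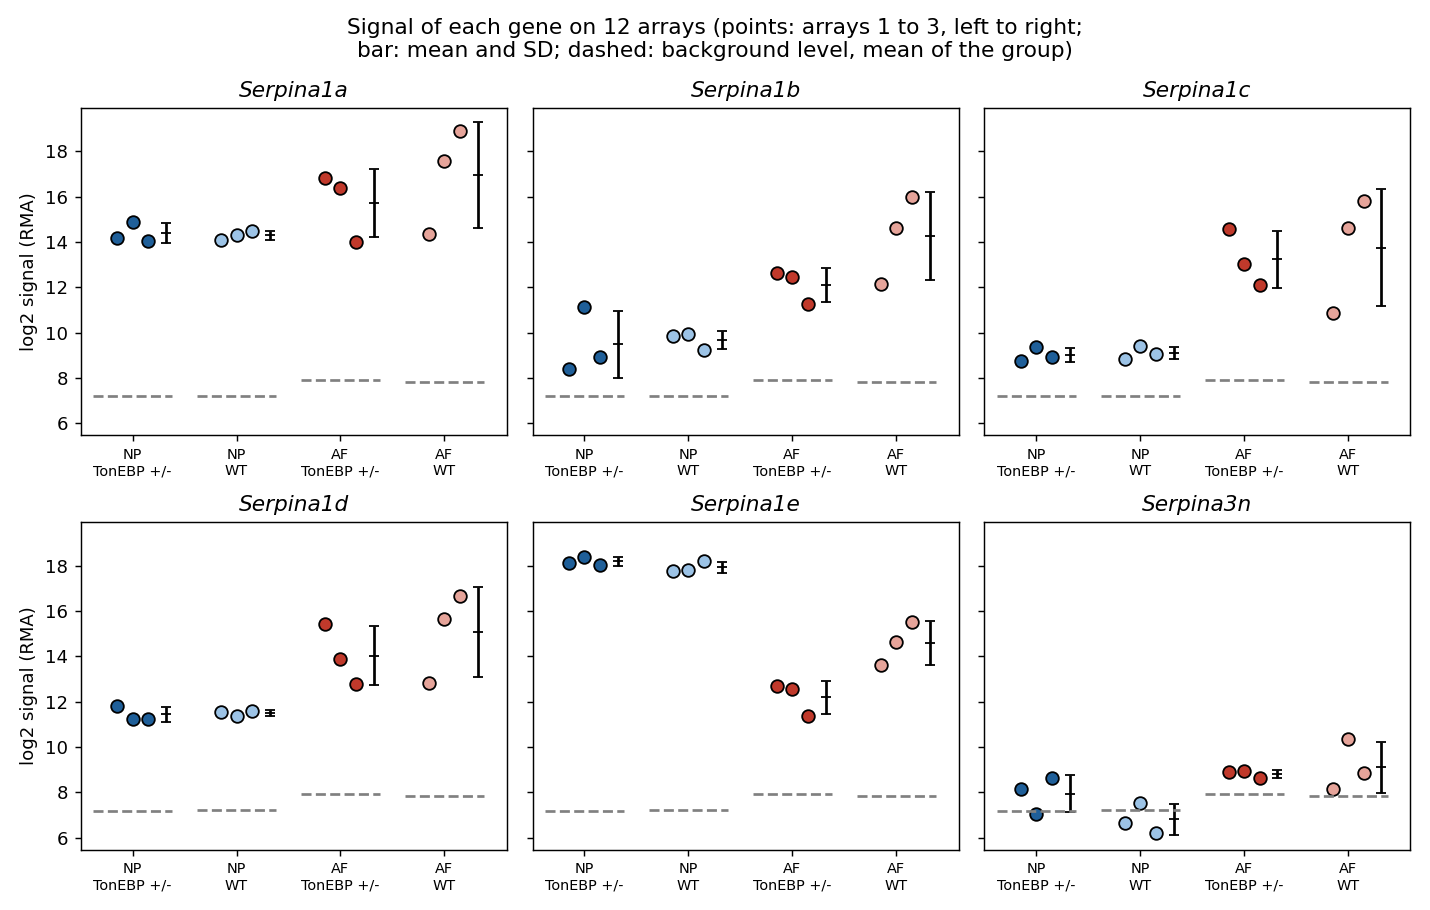
Log2 signal of each gene (y axis) on the 12 arrays by group (x axis), with points for arrays 1 to 3 from left to right, bars for the mean and SD (n = 3), and dashed lines for the mean background level of the group. Serpina1e is higher in NP than in AF, the other 5 genes are lower in NP on average, and the AF points of Serpina1a to Serpina1d spread over several log2 units.

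**Figure D2:**
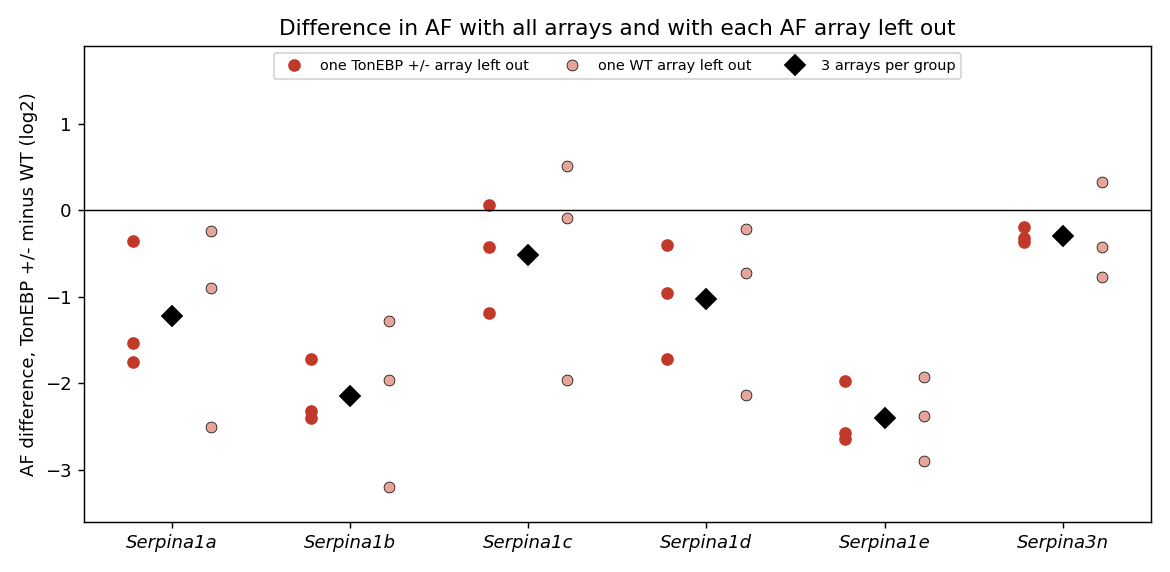
Difference in AF, TonEBP +/- minus WT, in log2 signal (y axis) for each gene (x axis), with all 6 AF arrays (diamonds) and with each TonEBP +/- array (dark points) or WT array (light points) left out. Serpina1e ranges from -2.89 to -1.93, Serpina1b from -3.20 to -1.28, and Serpina1c and Serpina3n cross 0.

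The spread among AF arrays of a genotype was unusually wide for these genes. The SD within groups, pooled over genotypes, was 0.35 in NP and 1.96 in AF for Serpina1a, 0.30 in NP and 2.03 in AF for Serpina1c, and 0.24 in NP and 1.69 in AF for Serpina1d. For Serpina1e it was 0.22 in NP and 0.86 in AF, and for Serpina1b 1.07 in NP and 1.47 in AF. The median over all clusters was 0.26 in NP and 0.36 in AF, and at least 98.5% of clusters had a smaller AF spread than any of the Serpina1 copies. For Serpina3n the SD was 0.75 in NP and 0.80 in AF.

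The wide AF values ran in step. In AF of TonEBP +/- all 5 copies were highest on array 1, then array 2, then array 3. In AF of WT all 5 were highest on array 3, then array 2, then array 1. Serpina3n followed neither order. No such common order was present in NP, where arrays of a genotype differed by under 1 log2 unit for every copy but Serpina1b, which ranged from 8.37 to 11.14 in NP of TonEBP +/-.

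The mean of 10 chondrocyte markers had the same array order in both AF groups, the only 1 of the 12 list means to do so. This match was thus picked from many lists. Of its genes, only Sox9, Hapln1 and Matn3 kept this order in both groups, and Col11a1 ran in reverse in TonEBP +/-. The mean was 13.4, 12.8 and 12.5 on AF arrays 1, 2 and 3 of TonEBP +/-, against 12.5, 14.3 and 14.6 on those of WT. Acan, the aggrecan core protein, had 14.76, 14.47 and 14.50 in TonEBP +/-, against 16.44, 16.69 and 16.71 in WT, and Sox9, its regulator, averaged 12.7 in TonEBP +/- and 14.3 in WT. In AF, 2 of the 10 markers, Acan and Sox9, were called lower (limma, adjusted p = 0.000331 and 0.0342) and 0 higher, where 3.31% of all clusters were called lower and 2.76% higher. The median of the 10 was -1.01, against -0.04 over all clusters. The neutrophil mean was higher on every TonEBP +/- AF array than on every WT one. The mean of the NP marker list ran in the reverse of the chondrocyte order in both AF groups. It was 9.38, 9.69 and 10.1 on AF arrays 1, 2 and 3 of TonEBP +/-, against 11.6, 10.0 and 9.91 on those of WT. The part of cartilage, NP or marrow content in the Serpina1 values was not tested.

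Hepatocyte markers were at or near background. Of 14 measured, 0 were above background on any NP array, 0 to 1 on the AF arrays of TonEBP +/- and 1 to 2 on the AF arrays of WT. Alb, the albumin gene, was at 7.26, 7.20 and 7.29 in AF of TonEBP +/-, against 7.00, 7.29 and 7.74 in AF of WT, below background on every array. Apoa1, Ttr, Ahsg and the liver regulator Hnf4a were also above background on none. Fgb did exceed the background level in AF of WT, with 8.49, 7.97 and 7.99. In AF of TonEBP +/- it had 8.06, 8.34 and 7.82, and only the last of these fell short of that level. All 14 markers had a lower mean in AF of TonEBP +/- than of WT, although most lay below background. Their median difference was -0.26, against -0.04 over all clusters. The apolipoprotein gene Apob was called lower in AF of TonEBP +/- (limma, adjusted p = 0.0486), but was above background on 0 and 1 of 3 arrays, so no fold is given.

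**Figure D3:**
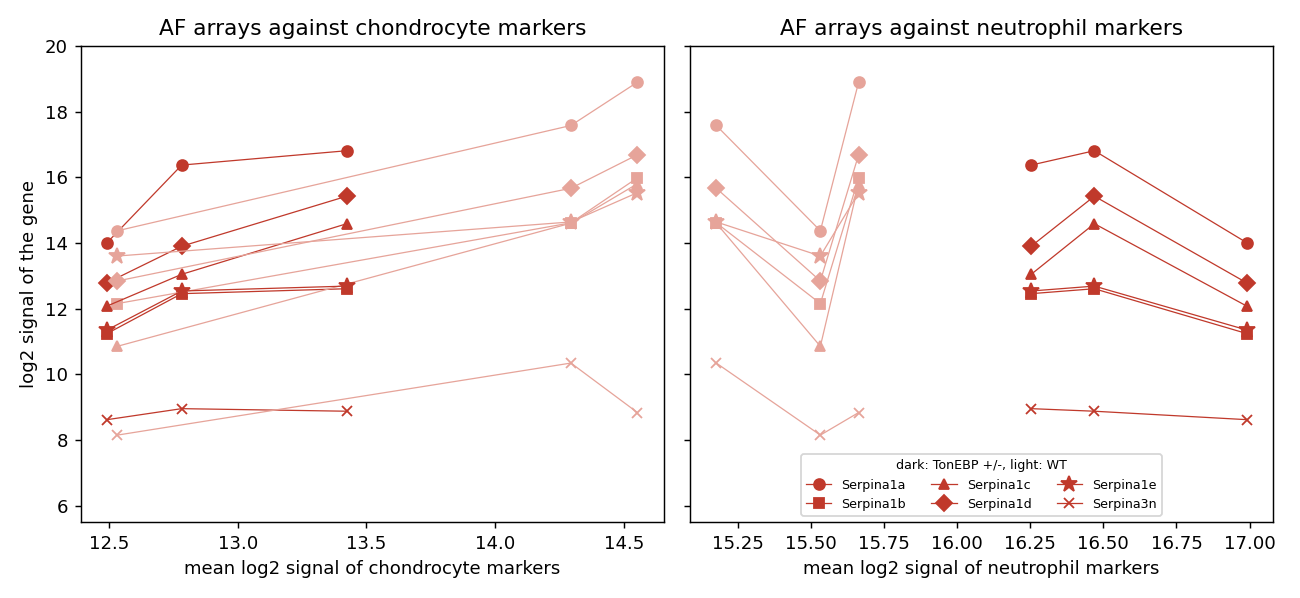
Log2 signal of each gene (y axis) on the 6 AF arrays against the mean log2 signal of 10 chondrocyte markers (left, x axis) and of 12 neutrophil markers (right, x axis), with lines joining the 3 arrays of TonEBP +/- (dark) and of WT (light). Within each genotype the 5 Serpina1 genes follow the chondrocyte mean, which runs from 12.5 to 13.4 in TonEBP +/- and from 12.5 to 14.6 in WT.

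In NP, TonEBP +/- and WT mice were compared by limma with p-values adjusted over all clusters, a contrast the choice of genes did not use. None of the 6 genes passed, with 0.113% of all clusters called (25, all lower), and none had groups without overlap, as 11.3% of all clusters did. Without adjustment, Serpina3n alone among the 6 had a p under 0.05, as did 827 of all clusters. Serpina1e had 18.14, 18.41 and 18.03 in NP of TonEBP +/-, against 17.77, 17.80 and 18.22 in NP of WT. These groups overlapped, and the difference was 0.26 (95% CI -0.61 to 1.13, limma adjusted p = 1). The lower bound excludes a fall of the size measured in AF. The highest signal of any cluster on the NP arrays was 19.93.

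Serpina1a had 14.19, 14.90 and 14.06 in NP of TonEBP +/-, against 14.10, 14.32 and 14.49 in NP of WT (difference 0.08, 95% CI -1.69 to 1.86). Serpina1d had 11.82, 11.26 and 11.25, against 11.53, 11.37 and 11.61 in WT (-0.06, 95% CI -1.60 to 1.47). Serpina1c had 8.76, 9.38 and 8.90, against 8.84, 9.39 and 9.06 in WT (-0.08, 95% CI -1.91 to 1.74). The genotypes overlapped for each. These intervals carry the AF spread. From the NP arrays alone they narrowed to -0.47 to 0.64 for Serpina1a, -0.53 to 0.41 for Serpina1d, -0.59 to 0.43 for Serpina1c and -0.19 to 0.72 for Serpina1e, so a 2-fold change in either direction lies outside all 4.

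Serpina1b was the variable copy in NP, at 8.37, 11.14 and 8.92 in TonEBP +/-, against 9.84, 9.95 and 9.23 in WT. Array 2 of TonEBP +/- was above all WT arrays and the other two below them. Its difference was -0.20 (95% CI -1.82 to 1.43, limma adjusted p = 1), and it was -1.03 without that array.

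Serpina3n had the largest NP difference of the 6, with 8.17, 7.04 and 8.62 in TonEBP +/-, against 6.66, 7.54 and 6.20 in WT. Array 2 of TonEBP +/- lay inside the WT range. The difference was 1.14 (95% CI 0.10 to 2.17, unadjusted p = 0.0331 and adjusted p = 1 by limma). Signals were above background on 2 of 3 arrays of TonEBP +/- and 1 of 3 of WT, so the fold is not exact. Leaving out 1 NP array at a time kept the difference between 0.80 and 1.59, and omitting an AF array cannot move it. The limma adjusted p was 0.929 or above in each of the 12 omissions. Socs3, a feedback gene of IL-6 and STAT3 signalling, also did not pass in NP (difference 1.39, adjusted p = 0.493), with 8.92, 8.66 and 8.89 in TonEBP +/- and 6.69, 6.96 and 8.67 in WT.

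The copies were divided by tissue. Serpina1e was higher in NP, and Serpina1b, Serpina1c and Serpina1d fell in NP relative to AF in both genotypes (limma, adjusted p of 0.00605 or less). Most clusters differed between the tissues: 54.4% were called lower in NP in TonEBP +/- and 56.1% in WT, where 22.2% were called higher. The median cluster was -0.75 in TonEBP +/- and -0.84 in WT, so sizes are also given relative to it. AF arrays chose Serpina1e, which is therefore described without a test, and the same AF arrays enter the tests of the other genes.

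For Serpina1e the NP minus AF difference was 6.00 in TonEBP +/- (95% CI 5.13 to 6.86) and 3.34 in WT (95% CI 2.47 to 4.20). Relative to the median these are 6.74 in TonEBP +/- and 4.17 in WT, and all NP arrays lay above all AF arrays. The genotypes have nearly equal NP levels, so the larger gap in TonEBP +/- restates the lower AF values.

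Serpina1c had the largest drop in NP, at -4.23 in TonEBP +/- (SE 0.862, limma adjusted p = 0.000432) and -4.66 in WT (adjusted p = 0.000153). Serpina1b stood at -2.63 in TonEBP +/- (SE 0.768, adjusted p = 0.00605) and -4.58 in WT (adjusted p = 6.42e-05, limma). Serpina1d stood at -2.60 in TonEBP +/- (SE 0.724, adjusted p = 0.00443) and -3.56 in WT (adjusted p = 0.000346, limma). No NP array of these genes reached the lowest AF array of the same genotype, as for 53.6% of all clusters in TonEBP +/- and 57.8% in WT. Relative to the median they were -1.85 to -3.48 in TonEBP +/- and -2.73 to -3.82 in WT.

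Serpina1a was called lower in NP only in WT, and the difference between genotypes in this respect was not tested. It stood at -1.35 in TonEBP +/- (95% CI -3.12 to 0.43, limma adjusted p = 0.154) and at -2.65 in WT (95% CI -4.42 to -0.87, adjusted p = 0.00887). In WT the tissues overlapped, since AF array 1 (14.37) lay below NP array 3 (14.49), and the call was lost with array medians subtracted (-1.91, adjusted p = 0.0548) and without AF array 3 of WT (-1.67, adjusted p = 0.0669). In TonEBP +/- it was called without AF array 3 of TonEBP +/- (-2.21, adjusted p = 0.0238) and without AF array 1 of WT (adjusted p = 0.0368).

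Serpina3n stood at -0.88 in TonEBP +/- (95% CI -1.91 to 0.15, limma adjusted p = 0.113) and at -2.31 in WT (95% CI -3.35 to -1.28, adjusted p = 0.000478). Relative to the median these are -0.13 in TonEBP +/- and -1.47 in WT. The tissues just failed to overlap in TonEBP +/- and were apart in WT, and the NP values of WT were above background on 1 of 3 arrays.

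**Figure D4:**
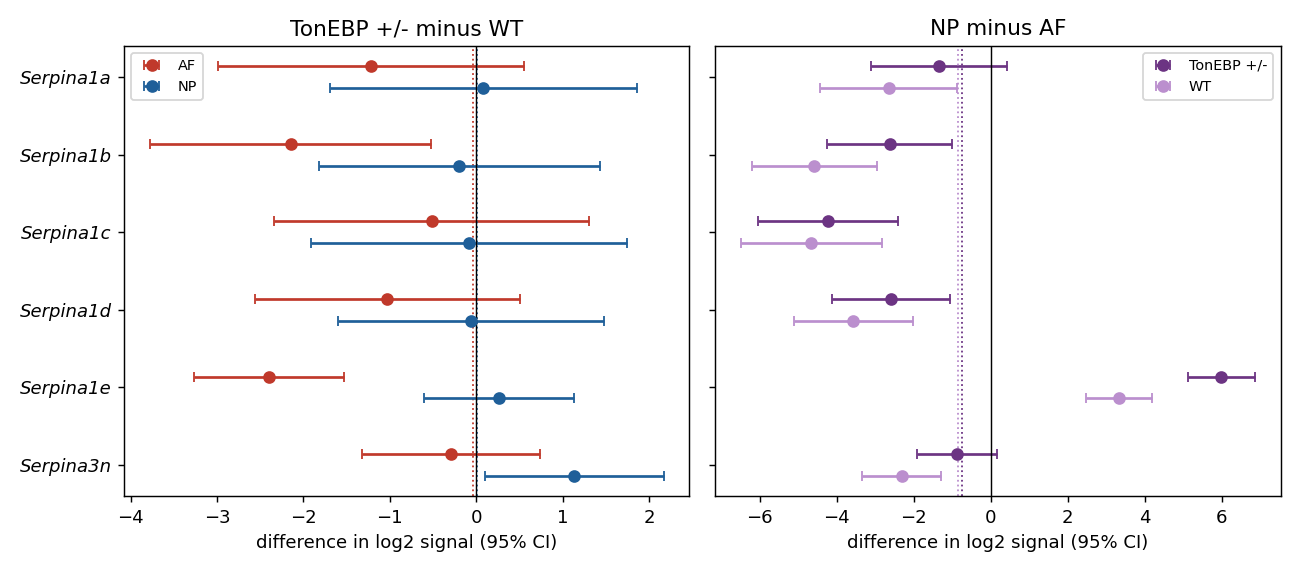
Differences in log2 signal (x axis) with 95% confidence intervals for each gene (y axis), as TonEBP +/- minus WT in AF and NP (left) and as NP minus AF in TonEBP +/- and WT (right). Dotted lines mark the median of all clusters, and Serpina1e is the only gene to the right of 0 on the tissue panel, at 6.00 in TonEBP +/- and 3.34 in WT.

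Of the neutrophil proteases that these serpins inhibit, Ctsg and Prtn3 rose in AF of TonEBP +/-, and Elane and Ctsg fell in its NP. Of 10 listed serine proteases, 2 rose in AF of TonEBP +/- and 1 fell, with 6.07% of all clusters called in either direction. The granule proteases Ctsg and Prtn3 rose by 1.38 and 1.47 (limma, adjusted p = 0.0285 and 0.0458), and Htra1, a secreted matrix protease, had a difference of -2.70 (adjusted p = 0.000162, limma). Elane, the gene of neutrophil elastase, had 16.76, 17.01 and 17.63 in TonEBP +/-, against 15.17, 14.88 and 16.26 in WT, with no overlap and a difference of 1.70 that did not pass (adjusted p = 0.0658, limma). In NP, 2 of the 10 fell and 0 rose, against 0.113% of all clusters called. From the NP arrays alone, 0 of the 128 list genes were called, Elane and Ctsg included. From the AF arrays alone, 2 of the 128 were called in AF. Most AF calls of list genes in the text therefore rest on the spread shared with NP. Elane had 9.03, 7.38 and 9.92 in NP of TonEBP +/-, against 11.38, 12.76 and 11.81 in NP of WT (-3.21, limma adjusted p = 0.0274). Ctsg was above background on none of the NP arrays of TonEBP +/- and was at least 1.97-fold lower there than in WT (adjusted p = 0.0208, limma). The neutrophil marker list, which holds Elane, Ctsg and Prtn3, had 4 of 12 higher in AF and 4 of 12 lower in NP. Those called were Ctsg, Prtn3, Camp and Cebpe in AF, and Elane, Ctsg, Mpo and Lyz2 in NP. Mpo had the smallest adjusted p of the list in NP (difference -3.33, limma adjusted p = 0.0079). The part of neutrophil content was not tested. Gzmb, granzyme B, was above background on no array.

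A list of other protease inhibitors held inhibitors of neutrophil proteases, the broad inhibitors A2m, Mug1 and Pzp, and also Cst3 and Timp3, which act on cysteine cathepsins and metalloproteinases. Of 9 measured, 1 rose in AF of TonEBP +/- and 0 fell, against 6.07% of all clusters called: Serpinb1a, a cytosolic inhibitor of neutrophil proteases, at 14.94, 15.26 and 16.49 in TonEBP +/-, against 13.81, 13.96 and 13.92 in WT (1.66, limma adjusted p = 0.027). None was called in NP by limma (1 at an unadjusted p under 0.05), against 0.113% of all clusters. In NP relative to AF of WT, 5 of 9 fell and 3 of 9 rose, near the 56.1% lower and 22.2% higher over all clusters.

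Among 14 measured relatives in clade A, 10 were above background on no array. Serpina6, the corticosteroid-binding globulin, and Serpina11, next to Serpina1e in the gene order, had genotype differences of -0.58 and -0.17 in AF and 0.15 and -0.12 in NP, none passing by limma (adjusted p of 0.212 or above). The Serpina1 relative Serpina1f, beside Serpina1b in the gene order, was not above background in any group. Serpina16 was called lower in AF (adjusted p = 0.0429, limma) but lay below background on all 12 arrays, so no fold is given.

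Genes of the acute phase and IL-6 pathway had 2 of 19 called higher and 0 lower in AF of TonEBP +/-, against 2.76% of all clusters higher and 3.31% lower. In NP, 0 were called by limma (4 at an unadjusted p under 0.05), against 0.113% of all clusters. Those called were haptoglobin, Hp, by 1.80 (limma, adjusted p = 0.0435) and the LIF receptor, Lifr, by 1.68 (adjusted p = 0.0289). The difference of Hp was -1.92 in NP (adjusted p = 0.296, limma), and the median difference of the 12 neutrophil markers was 1.30 in AF and -2.14 in NP. The part of neutrophil content in Hp was not tested. Il6st, the shared receptor chain gp130, differed by 0.43 in AF and 0.25 in NP, and Stat3 by 0.84 in AF (adjusted p = 0.095, limma) and 0.04 in NP. The serum amyloid genes Saa1 and Saa3 were above background on no array.

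Of 12 genes for export and clearance of antitrypsin, 11 were above background on each AF array of TonEBP +/- and 10 on each AF array of WT. In AF of TonEBP +/-, 2 were called higher and 0 lower, against 2.76% of all clusters higher and 3.31% lower. In NP, 0 were called by limma, against 0.113% of all clusters, and 0 had an unadjusted p under 0.05. Edem1, which feeds misfolded antitrypsin to degradation, rose by 1.42 (limma, adjusted p = 0.0372), and the chaperone calreticulin, Calr, by 1.03 (adjusted p = 0.0487). The median of the list was 0.50 in AF, against -0.04 over all clusters. Lman1, the cargo receptor that carries antitrypsin out of the endoplasmic reticulum, had 10.84, 11.89 and 11.87 in AF of TonEBP +/-, against 11.00, 10.84 and 11.28 in AF of WT (0.49, adjusted p = 0.289, limma). Lrp1, the scavenger receptor that clears serpin complexes, was higher in NP than in AF of WT by 3.06 (limma, adjusted p = 2.29e-08) and did not pass between genotypes (-0.49 in AF and 0.20 in NP). Array 3 of TonEBP +/- was the highest AF array for Edem1 (12.33), Calr (17.25), Lifr (11.11), Hp (18.00) and Serpinb1a (16.49). Of 128 list genes, 24 were called in AF, against 6.07% of all clusters. The count was 5 without that array, 13 without array 1 of TonEBP +/-, and 9 and 14 without arrays 2 and 3 of WT.

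The genes most like Serpina1e over the 12 arrays, among 9246 named genes above background on at least 6 arrays, were Anxa8, an annexin, the syndecan Sdc4, Slc35g2, the Hedgehog co-receptor Cdon and the cilium gene Cc2d2a, by Pearson correlation of 0.98 to 0.99. The 12 points share the gap between tissues, and the AF points also share the gap between genotypes in Serpina1e that chose the set. These correlations are a description, over the arrays by which the genes were picked. On the 6 AF arrays alone the values were 0.96 for Anxa8, 0.96 for Sdc4, 0.92 for Slc35g2, 0.89 for Cdon and 0.97 for Cc2d2a, and on the 6 NP arrays they ran from 0.06 to 0.67. Anxa8 averaged 11.4 in AF of TonEBP +/- and 13.4 in AF of WT, and 16.3 in NP of TonEBP +/- and 16.0 in NP of WT. The genes most like Serpina3n were Hnrnpll, the matrix Gla protein gene Mgp, Dtnb, Trmt6 and Tnnt1, at 0.85 to 0.88, a weaker likeness that includes NP values below background.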

How the data were processed

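Per the labels, Clariom S Mouse arrays measured the RNA of 12 samples. The authors deposited a log2 signal for every probe set and array, made with Affymetrix Expression Console and RMA, per the submitters' processing notes. RMA corrects background, normalizes and summarizes probes. Which arrays were normalized together is not given in the sources used here. Of 28846 probe sets, 6640 controls were left out and 22206 clusters tested, 19572 with a symbol from the platform table, updated through RefSeq.

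A linear model with 4 group means was fitted to all 12 arrays in limma 3.58.1 (R 4.3.3, 8 residual and 7.93 prior degrees of freedom). P-values were adjusted by Benjamini and Hochberg over all clusters and called under 0.05. The fit was tested on simulated data. Spread was shared across tissues, so AF intervals may be too narrow. Figures and sequences used Python 3.11.15, matplotlib 3.10.9 and Biopython 1.88.

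Genes and 12 lists were chosen with earlier results of these data known. From the lists the text names genes called without overlap between genotypes, up to 4 per list, and 10 set genes. For the neutrophil list all called genes are named. Disc, macrophage and muscle lists served as tissue checks and are given mainly as counts. Socs3, Serpina1f, Serpina6, Serpina11, Saa1, Saa3, Ttr, Ahsg, Hnf4a and Fgb were chosen after their values were seen. The same holds for Noto, Car3, Scx, Mkx, Tnmd, Comp, Dcn, Matn3, Hapln1 and Col11a1. No 2 arrays were duplicates (smallest SD of a difference 0.414). Alternatives were other scalings, moderation, weights, filters, tissues fitted alone and omissions of each array. The labels name single animals per sample, so the spread within a group is between animals. The p-values use that spread pooled over the groups and moderated. Any AF and NP samples of the same mouse were treated as independent.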

Additional observations from a re-analysis of the deposited data

How the results depend on the processing

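No member was called between genotypes in NP under any of 18 alternatives. Serpina1e, Serpina1b and Serpina1a were lower in AF of TonEBP +/- under all 18. Omitting an NP array, other moderation, the filter and fitting AF alone cannot move an AF difference, so this count does not measure robustness. For Serpina1e this contrast also chose the set. The directions of small NP differences followed single arrays. With each array left out in turn, they ran from -0.17 to 0.25 for Serpina1a, -1.03 to 0.36 for Serpina1b, -0.26 to 0.061 for Serpina1c and -0.25 to 0.033 for Serpina1d. In AF the omissions gave -1.97 to 0.51 for Serpina1c and -0.77 to 0.32 for Serpina3n. With array weights, whose estimation stopped before convergence, AF differences were 0.44 for Serpina1c and 0.041 for Serpina1d, and 5 of 5 genes (against 3) were called between tissues in TonEBP +/-, where omissions gave 3 to 4. Between tissues in WT, omissions gave 4 to 5 of 5. Serpina1e was not in these counts. Calls among 128 list genes depended on the fit. In NP, 4 were called, 7 with array weights, 0 from the NP arrays alone and 1 to 12 under omissions (1 without NP array 2 of either genotype, 12 without NP array 3 of WT). In AF, 24 were called, 55 with array weights, 2 from the AF arrays alone and 5 to 32 under omissions. Among clusters above background on at least 3 arrays, which tests 83 list genes, 71 were called between tissues in WT and 69 in TonEBP +/-, against 113 and 109 of 128. No gene had another cluster to try. No paired analysis was possible because the labels number the samples without sharing a number between groups. Signals of Serpina3n near background limit its NP values.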

Other observations

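The counts of the lists used as tissue checks were as follows, each by limma over all clusters. In AF of TonEBP +/-, 5 of 7 macrophage and osteoclast markers, 4 of 12 neutrophil markers and 3 of 10 AF markers rose, against 2.76% of all clusters called higher. In the same comparison 1 of 10 AF markers (Fmod) and 1 of 8 NP markers (Krt19) fell, against 3.31% of all clusters called lower, and 0 of 6 skeletal muscle markers were called. Fmod went against its place among AF markers, being higher in NP than in AF by 5.79 in TonEBP +/- and by 3.51 in WT. In NP of TonEBP +/-, 4 of 12 neutrophil markers fell and no marker of the AF, NP, chondrocyte, macrophage, muscle or hepatocyte lists was called, against 0.113% of all clusters called. At an unadjusted p under 0.05 there were 1 NP marker, 1 macrophage and osteoclast marker, 1 muscle marker and 0 of the AF, chondrocyte and hepatocyte markers.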
